A study of Danio rerio with 48 samples.

Results

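The transcripts described here encode metal ion carriers of 5 solute carrier families in wild type zebrafish embryos. All rows of the count table whose gene symbol belongs to the families slc11, slc30, slc31, slc39 or slc41 were taken, which gave 28 of 36109 genes. They comprised 12 slc39, 10 slc30, 3 slc41 and 2 slc31 genes and 1 slc11 gene, slc11a2. The series, titled as a study of yolk lipid mobilization and growth, measured messenger RNA by bulk sequencing of wild type (WT) embryos with no treatment named in the labels. Whole embryos and yolk tissue were each sampled at 6, 10, 26 and 48 hours post fertilization (hpf), with 4 libraries per tissue and age and 32 in all. The labels list 48 samples, of which 16 of body tissue were not analysed here. A whole embryo includes its own yolk, so a comparison of yolk with whole embryo sets a tissue against a mixture that contains it.

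Zinc, copper, iron, manganese and magnesium ions cross membranes with the help of proteins, among them carriers, channels and pumps. The SLC39 carriers, also called ZIP proteins, move zinc into the cytosol from outside the cell or from organelles, and some of them also carry iron or manganese. The SLC30 carriers, also called ZnT proteins, do the reverse and move zinc out of the cytosol, across the plasma membrane or into vesicles and the Golgi. SLC31A1 (CTR1) is the main importer of copper, SLC11A2 (DMT1) imports ferrous iron, and the SLC41 family carries magnesium. In fish with a large yolk the metals of the egg are laid down by the mother, and the yolk syncytial layer, a multinucleate tissue around the yolk mass, passes yolk nutrients to the embryo. In mice, ZIP4 and ZIP5 are found in the visceral yolk sac as well as in the intestine.

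Library totals ran from 32302472 to 39765045 counts. Levels are given below as counts per 1000000 (CPM) scaled by the trimmed mean of M-values (TMM), with the mean ± SD of 4 libraries. The counts were not divided by transcript length, so levels are compared between groups for 1 gene and not between genes. Of 8 marker genes of the yolk syncytial layer, 8 at 6, 10 and 48 hpf and 7 at 26 hpf were higher in yolk than in whole embryo. By the same test 24.8%, 24.5%, 20.6% and 22.8% of all tested genes were higher at 6, 10, 26 and 48 hpf. Several libraries stood apart. Yolk 26 hpf replicate 1 had a summed level of 7 muscle markers of 6409 CPM, against 62.3 to 167 CPM in the other 3 libraries of that group, and a sum of 8 neural markers of 494 CPM, against 34.5 to 64.01 CPM. Its TMM factor was 0.937, against 0.529 to 0.729 in the others, and most transcripts below were lowest there and highest in replicate 4. Muscle markers were also uneven at the early ages. Their sum at 6 hpf was 114, 223, 3.05 and 8.95 CPM in whole embryo replicates 1 to 4 and 35.3, 77.2, 15.6 and 140 CPM in yolk. In yolk at 10 hpf it was 0.308, 9.59, 0.834 and 58.2 CPM. The part of such transcripts in early calls that rested on few counts was not tested. Yolk 6 hpf replicate 2 had 1883 CPM of 7 epidermis markers, against 160 to 299 CPM in the rest of its group. In yolk at 26 hpf that sum was 6979, 3387, 3103 and 375 CPM in replicates 1 to 4, and 3 hatching gland markers summed to 268 to 1057 CPM. At 10 and 48 hpf the yolk epidermis sums were 156 to 263 and 427 to 490.01 CPM. The hatching gland sums were 0.995 to 10.1 and 3.08 to 6.69 CPM at those ages. By group median both lists were highest in yolk at 26 hpf. The epidermis sum of yolk 26 hpf replicate 4 was, however, below every yolk library of 48 hpf and below yolk 6 hpf replicate 2. The part of these markers in the yolk values at 26 hpf was not tested. The labels do not say whether replicates came from separate clutches, so p-values measure the spread between these libraries, which may be partly technical. In bulk tissue, more cells of a type and more transcript per cell cannot be told apart.

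All 28 genes passed the filter on low counts. At each age more of them were higher in yolk than were lower. At 6 hpf 14 were higher and 5 lower (edgeR quasi-likelihood test, adjusted p under 0.05), while 24.8% of all tested genes were higher and 27.4% lower. At 10 hpf 17 were higher and 6 lower, against 24.5% and 29.9% of all tested genes. The counts at 26 hpf were 17 and 2, against 20.6% and 25.3%, and at 48 hpf 19 and 3, against 22.8% and 27.5%. The median log2 difference of the 28 genes, yolk minus whole embryo, was 0.61, 1.82, 1.16 and 1.40 at 6, 10, 26 and 48 hpf, beside -0.046, -0.22, -0.25 and -0.036 over all tested genes. Scaling by library totals in place of TMM moved the median of all tested genes by -0.37, -0.87, -1.06 and -0.61 at the 4 ages. Under that scaling 13, 13, 12 and 15 genes were higher and 8, 8, 8 and 6 lower. The shares of all tested genes printed here and below are those of the fit of all libraries under TMM. Counts under library totals or other settings therefore have no share of their own beside them. Of the 83 calls in these 4 comparisons, 69 were kept.

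The genes differed in how steady the difference was. A group of 12 was higher in yolk at all 4 ages, namely slc11a2, slc30a1a, slc30a1b, slc30a4, slc30a8, slc31a1, slc31a2, slc39a1, slc39a5, slc39a9, slc41a1 and slc41a2a. The share of all tested genes that were higher at all 4 ages was not counted, so these 12 have no background beside them. Their 48 calls included 46 that were kept under library totals, the exceptions being slc31a2 at 26 hpf and slc30a4 at 48 hpf. Leaving out any 1 library kept 47 of them, and the exception, slc41a2a at 6 hpf, rested on 12 counts. At every age slc41a2b was lower in yolk. The zinc importers slc39a6 and slc39a10 were lower in yolk at 6 and 10 hpf and higher at 26 and 48 hpf. No age gave a call for slc30a9 and slc39a11 in the fit of all libraries under TMM, although other settings called both, and the remaining 11 genes were called at 1 to 4 ages.

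**Figure D1:**
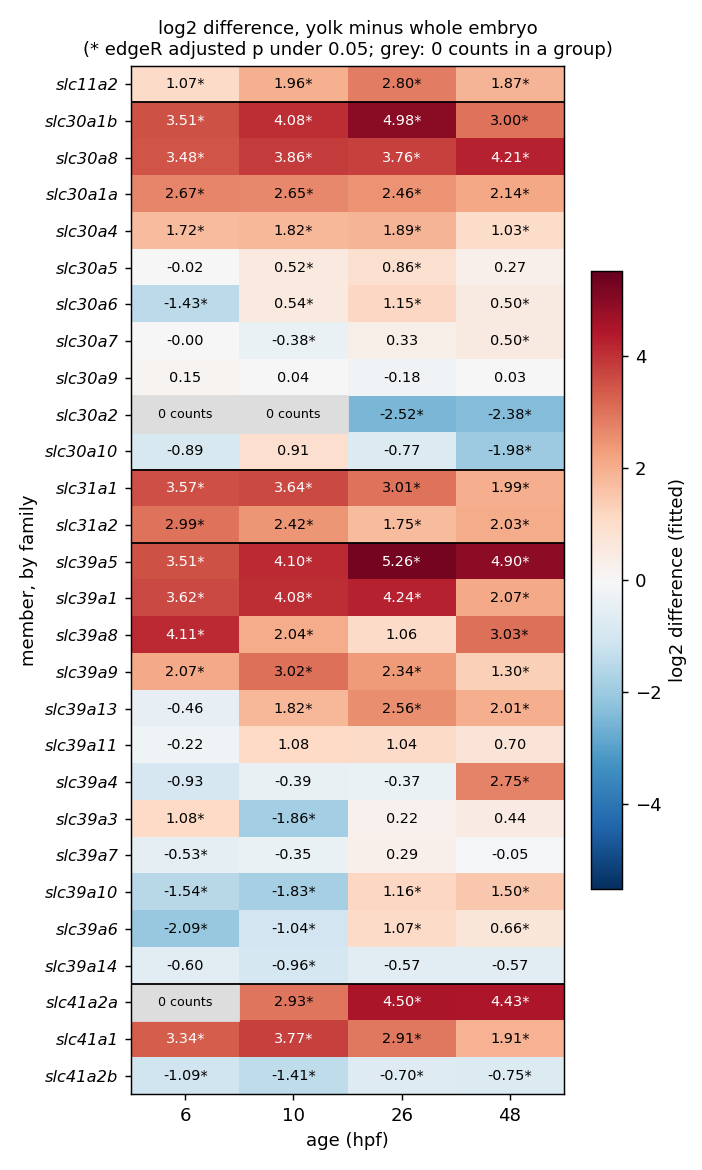
Fitted log2 difference between yolk and whole embryo for the 28 genes (rows, by family) at 4 ages (columns, hpf), with red for higher in yolk, blue for lower and a star for an edgeR adjusted p under 0.05. Grey cells have a group with 0 counts, and slc39a6 and slc39a10 change from blue at 6 and 10 hpf to red at 26 and 48 hpf.

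Among the zinc importers, slc39a5 had the largest difference. It encodes ZIP5, which in mice lies on the basolateral side of intestinal and visceral yolk sac cells. At 26 hpf the yolk libraries, in replicate order, held 377, 551, 636 and 860.4 CPM of slc39a5, and the whole embryo libraries 13.5, 17.2, 15.4 and 17.01 CPM. Every yolk library was above every whole embryo library, and the difference was 38.4-fold (log2 5.26 ± 0.23 SE, adjusted p = 5.7e-16). The level of slc39a5 fell at every step between ages in yolk, though from 10 to 26 hpf not without yolk 26 hpf replicate 1, and was 1858 ± 193 CPM at 6 hpf and 899 ± 52.1, 606 ± 201 and 337 ± 87.8 CPM at 10, 26 and 48 hpf. In whole embryo it was 163 ± 22.9, 52.3 ± 2.8, 15.8 ± 1.71 and 11.3 ± 3.17 CPM at the 4 ages, and the falls up to 26 hpf passed while the last step did not (adjusted p = 0.076). Its difference between the tissues was 11.4-fold, 17.2-fold and 29.8-fold at 6, 10 and 48 hpf.

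The plasma membrane importer slc39a1 (ZIP1) was also higher in yolk at every age. At 6 hpf its yolk libraries held 1601, 1754, 1731 and 1754 CPM and its whole embryo libraries 143, 137, 122 and 155 CPM, with no overlap and a difference of 12.3-fold (log2 3.62 ± 0.36 SE, adjusted p = 8.9e-10). By 26 hpf the yolk libraries held 47.3, 91.7, 105 and 271 CPM, a spread in which replicate 1, the library with muscle transcripts, was lowest. Whole embryo libraries of that age held 4.72, 8.27, 4.64 and 9.54 CPM, all below the yolk libraries, and the difference of 18.9-fold (log2 4.24 ± 0.37 SE) was above the 16.9-fold of 10 hpf (log2 4.08). Without yolk 26 hpf replicate 4, the highest library, the 26 hpf difference was log2 3.58 and lay below that of 10 hpf. At 48 hpf yolk had 19.02 ± 7.07 CPM and whole embryo 4.52 ± 0.942 CPM of slc39a1, a difference of 4.21-fold.

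Another importer that was higher in yolk at all ages was slc39a9 (ZIP9), a carrier of the Golgi and plasma membrane. Its yolk level was 191 ± 47.4 CPM at 6 hpf, 546 ± 35.98 CPM at 10 hpf, 159 ± 59.4 CPM at 26 hpf and 70.8 ± 4.72 CPM at 48 hpf. The largest difference from whole embryo, 8.12-fold (log2 3.02 ± 0.2 SE, adjusted p = 4e-13), was at 10 hpf, where all 4 yolk libraries (496 to 577 CPM) were above the whole embryo libraries (63.8 to 71.4 CPM). Both slc39a9 and slc39a13 had their highest yolk mean after 6 hpf, while slc39a1 and slc39a5 had theirs at 6 hpf.

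The gene slc39a13 (ZIP13), which releases zinc from vesicles and the early secretory pathway, moved from no call at 6 hpf to clearly higher in yolk afterwards. At 6 hpf its yolk libraries held 16.6, 37.5, 13.4 and 23.2 CPM and its whole embryo libraries 29.2, 34.7, 30.3 and 30.4 CPM, and the groups overlapped (log2 -0.46 ± 0.23 SE, adjusted p = 0.1). With the replicate number as a block it passed there as lower in yolk, as it did without yolk 6 hpf replicate 2 and under library totals (log2 -0.808). In yolk it then rose 6.29-fold by 10 hpf, to 143 ± 47.1 CPM, and was 3.53-fold, 5.88-fold and 4.02-fold higher than in whole embryo at 10, 26 and 48 hpf. Whole embryo stayed between 20.01 and 40.5 CPM in its group means of slc39a13.

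The importers slc39a6 and slc39a10 showed opposite differences early and late. They encode ZIP6 and ZIP10, close relatives whose proteins join in 1 complex in mammals, and in zebrafish slc39a6 (LIV1) acts in cell movement during gastrulation. At 6 hpf yolk libraries held 33.1, 30.1, 37.7 and 20.7 CPM of slc39a10 and whole embryo libraries 96.3, 79.1, 118 and 60.9 CPM, with every yolk library below every whole embryo library (2.92-fold lower, log2 -1.54 ± 0.17 SE, adjusted p = 6.5e-09). At 48 hpf the order was reversed, with 125, 90.01, 108 and 93.8 CPM in yolk and 36.3, 38.6, 34.9 and 37.8 CPM in whole embryo (2.83-fold higher, log2 1.5 ± 0.17 SE, adjusted p = 2.3e-08). The change lay between 10 and 26 hpf, when slc39a10 rose 4.01-fold in yolk, from 28.2 ± 3.51 to 113 ± 18.2 CPM, and fell 1.98-fold in whole embryo, from 101 ± 4.82 to 50.7 ± 2.52 CPM.

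For slc39a6 the 6 hpf libraries held 8.45, 10.8, 8.63 and 15.1 CPM in yolk and 43.3, 53.6, 38.2 and 48.5 CPM in whole embryo, again without overlap (4.27-fold lower, log2 -2.09 ± 0.21 SE, adjusted p = 7.6e-10). At 26 hpf yolk libraries held 47.6, 56.7, 89.5 and 45.5 CPM, all above the 23.3 to 31.8 CPM of whole embryo (2.1-fold higher, log2 1.07 ± 0.2 SE). The late differences depended on the scaling. Under library totals the log2 difference of slc39a6 at 26 hpf was -0.0334, and neither its calls at 26 and 48 hpf nor that of slc39a10 at 26 hpf passed, while slc39a10 passed at 48 hpf. The difference between the tissues in the change from 6 to 48 hpf was tested directly and was log2 2.76 ± 0.29 SE for slc39a6 and 3.04 ± 0.24 SE for slc39a10 (adjusted p = 3.5e-09 and 1.7e-11).

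Apart from slc39a11, the remaining importers passed at 1 to 3 ages. A carrier of manganese, zinc and iron in mammals, slc39a8 (ZIP8), was at most 2.17 CPM in any library up to 26 hpf and was higher in yolk at 6 and 10 hpf (17.3-fold and 4.1-fold), the latter not under library totals. The 6 hpf difference rested on 11 counts in whole embryo, and it was log2 4.11 with all libraries and 5.47 without whole embryo 6 hpf replicate 4. It then rose in yolk to 8.21, 10.8, 10.9 and 10.5 CPM at 48 hpf, against 0.882, 0.944, 1.28 and 1.83 CPM in whole embryo, with no overlap (8.15-fold, log2 3.03 ± 0.66 SE, adjusted p = 0.00034). At 48 hpf slc39a4 (ZIP4), the apical zinc importer of the mammalian gut, was higher in yolk at 2.57, 1.74, 1.02 and 1.4 CPM, against 0.176, 0.254, 0.40 and 0.157 CPM (6.72-fold, log2 2.75 ± 0.87 SE, adjusted p = 0.0093). Pancreas markers moved with both genes. Their summed level over 4 genes was 8.0 to 14.8 CPM in yolk at 26 hpf and 122 to 179 CPM at 48 hpf, against 5.2 to 5.99 CPM in whole embryo at 48 hpf, and their part in the result was not tested.

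The importer slc39a3 (ZIP3) was higher in yolk at 6 hpf, at means of 1.06 ± 0.437 and 0.50 ± 0.256 CPM, and lower at 10 hpf, at 1.54 ± 0.438 and 5.59 ± 0.924 CPM (log2 1.08 ± 0.36 and -1.86 ± 0.34 SE). The 6 hpf call ended with the block and the libraries of that age alone, under library totals, and without whole embryo replicate 1 or yolk replicate 4. The carrier slc39a14 (ZIP14), a manganese importer in zebrafish, was lower in yolk at 10 hpf (1.95-fold, adjusted p = 0.033) at 1.77 ± 0.268 against 3.45 ± 0.713 CPM. That call ended under DESeq2 size factors and without whole embryo 10 hpf replicate 2 or 4 or yolk replicate 1, 2 or 4. Under library totals slc39a14 also passed as lower at 26 and 48 hpf (log2 -1.59 and -1.19). At 6 hpf slc39a7 (ZIP7), which moves zinc out of the endoplasmic reticulum, was 1.44-fold lower in yolk (adjusted p = 0.023), a call that ended without whole embryo replicate 2 or yolk replicate 1 or 3 and under the DESeq2 alternatives. At 10 hpf slc39a7 also passed as lower with the block (log2 -0.359, adjusted p = 0.048). Under library totals slc39a7 passed as lower at 10, 26 and 48 hpf (log2 -1.23, -0.851 and -0.658). With the block and the libraries of that age alone, slc39a3 passed as higher at 48 hpf (log2 0.476, adjusted p = 0.014). Under library totals slc39a3 passed as lower at 26 hpf (log2 -0.825, adjusted p = 0.037). In the fit of all libraries no age gave a call for slc39a11 (ZIP11), at 2.58 ± 0.692 CPM in yolk and 1.21 ± 0.527 CPM in whole embryo at 10 hpf (log2 1.08 ± 0.59 SE, adjusted p = 0.12), where every yolk library was above every whole embryo library. At 10 hpf slc39a11 passed as higher in yolk by DESeq2 and in a fit of the libraries of that age alone (adjusted p = 0.021 each), and with the block and those libraries (adjusted p = 0.012). At 26 hpf the fit of the libraries of that age alone called slc39a11 as well (adjusted p = 0.022). In all, 5, 5, 6 and 8 of the 12 slc39 genes were higher in yolk at 6, 10, 26 and 48 hpf. The shares of all tested genes were 24.8%, 24.5%, 20.6% and 22.8%. At 6 and 10 hpf 3 and 4 slc39 genes were lower, near the 27.4% and 29.9% of all tested genes. At 26 and 48 hpf 0 were lower under TMM, against 25.3% and 27.5%. Library totals, as given above, called genes of this family lower at both ages.

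**Figure D2:**
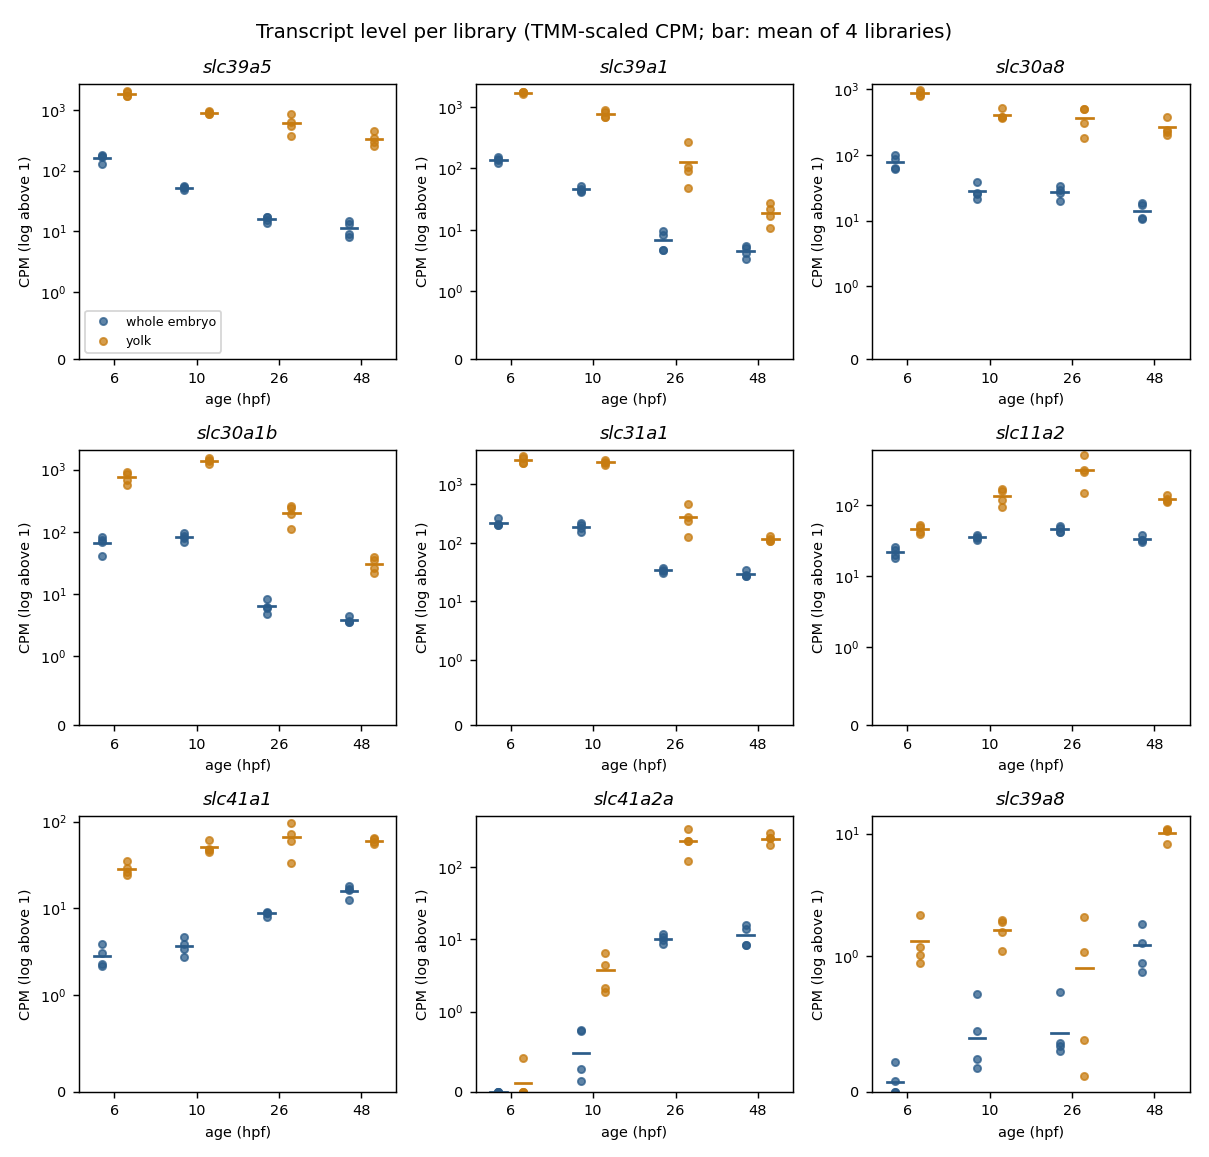
Level of 9 carrier transcripts in each library (TMM-scaled CPM; linear below 1, log scale above) by age in hpf, with whole embryo in blue, yolk in orange and bars at the mean of 4 libraries. Yolk libraries sit above whole embryo libraries at every age for all but slc41a2a at 6 hpf and slc39a8 at 26 hpf, where the groups overlap.

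The zinc exporters ranged from genes that were much higher in yolk, through genes near the level of the whole embryo, to slc30a2 and slc30a10, which were lower in yolk at 48 hpf. The 2 copies of slc30a1 (ZnT1), the plasma membrane exporter that releases zinc from cells, and slc30a8 (ZnT8), which loads insulin granules with zinc in the mammalian pancreas, had the largest differences in the direction of yolk, apart from that of slc30a2 at 10 hpf, which rested on 5 counts. At 10 hpf slc30a1b stood at 1532, 1216, 1407 and 1385 CPM in the yolk libraries and at 96.8, 69.2, 84.5 and 78.1 CPM in the whole embryo libraries, with no overlap. The difference was 16.9-fold (log2 4.08 ± 0.26 SE, adjusted p = 1.1e-13). At 26 hpf slc30a1b had fallen to 109, 191, 237 and 261 CPM in yolk and 4.77, 8.43, 6.03 and 6.09 CPM in whole embryo, and the difference was 31.5-fold (log2 4.98 ± 0.27 SE). It was 11.4-fold at 6 hpf and 8.01-fold at 48 hpf.

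Its paralog slc30a1a stood at 775, 472, 707 and 602 CPM in yolk and 116, 98.6, 96.9 and 88.9 CPM in whole embryo at 6 hpf, again without overlap (6.38-fold, log2 2.67 ± 0.22 SE, adjusted p = 1.2e-11). The yolk level of slc30a1a was 252 ± 24.9, 95.5 ± 43.1 and 88.3 ± 21.01 CPM at 10, 26 and 48 hpf. Its difference from whole embryo was 6.26-fold, 5.5-fold and 4.4-fold at those ages.

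The yolk libraries at 48 hpf held 225, 241, 200.01 and 382 CPM of slc30a8 and the whole embryo libraries 10.4, 18.2, 10.8 and 17.02 CPM, with every yolk library higher (18.6-fold, log2 4.21 ± 0.3 SE, adjusted p = 2.2e-12). Insulin transcript (ins) was also higher in yolk, at 89.4 ± 19.3 CPM at 48 hpf against 3.29 ± 0.541 CPM in whole embryo. The level of ins was 0.512 ± 0.438 CPM in yolk at 6 hpf, and its part in the level of slc30a8 was not tested. The yolk libraries of 6 hpf held 966, 892, 776 and 811 CPM of slc30a8, its highest level, 11.1-fold above whole embryo. At 10 and 26 hpf slc30a8 was at 405 ± 69.9 and 367 ± 153 CPM in yolk, 14.6-fold and 13.5-fold above whole embryo.

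The vesicular exporter slc30a4 (ZnT4) was the fourth of the family to be higher in yolk at all ages. Its yolk level rose from 12.5 ± 4.26 CPM at 6 hpf to 48.8 ± 12.02 CPM at 26 hpf, and its difference was 3.29-fold, 3.54-fold, 3.7-fold and 2.04-fold at the 4 ages. Carriers that load zinc into the secretory pathway, slc30a5, slc30a6 and slc30a7, differed less. At 6 hpf slc30a6 was 2.69-fold lower in yolk (log2 -1.43 ± 0.2 SE, adjusted p = 4.9e-07), and all 4 yolk libraries (8.24 to 10.4 CPM) were below the whole embryo libraries (21.7 to 28.1 CPM). It was higher in yolk afterwards, by 1.45-fold, 2.23-fold and 1.41-fold, but its log2 difference under library totals was -0.341, -0.0156 and -0.126 at those ages. The calls of slc30a6 at 10 and 48 hpf also ended without single libraries (whole embryo 10 hpf replicate 1, yolk 10 hpf replicate 2 or 3, whole embryo 48 hpf replicate 4, yolk 48 hpf replicate 1 or 3). For slc30a5 the calls at 10 and 26 hpf (1.43-fold and 1.81-fold higher in yolk) likewise turned to -0.356 and -0.294 under library totals, and the first also ended without whole embryo 10 hpf replicate 1 or 3. At 48 hpf slc30a5 passed as higher with the block and the libraries of that age alone (log2 0.307, adjusted p = 0.019).

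At 10 hpf slc30a7 was 1.3-fold lower in yolk and at 48 hpf 1.41-fold higher. The first call ended under the DESeq2 alternatives, with the block and the libraries of that age alone and without any of 5 single libraries (whole embryo 10 hpf replicate 2 or 4, yolk 10 hpf replicate 1, 2 or 4), and the second was -0.112 under library totals. The mitochondrial carrier slc30a9 gave log2 differences between -0.18 and 0.15 and no call at any age, but under library totals it passed as lower in yolk at 10, 26 and 48 hpf (log2 -0.832, -1.31 and -0.576). Both slc30a2 (ZnT2), which in humans loads milk with zinc, and the manganese exporter slc30a10 were lower in yolk at 48 hpf. The level of slc30a2 was then 1.51, 2.3, 2.11 and 3.71 CPM in yolk and 8.99, 11.8, 13.6 and 15.7 CPM in whole embryo (5.2-fold lower, adjusted p = 0.0072). It had 0 counts in both tissues at 6 hpf and in whole embryo at 10 hpf. Its call as higher in yolk at 10 hpf rested on 5 counts, at least 3.05-fold above a floor of 3 counts over the whole embryo group, and ended with the block, under library totals, without the low-count filter, and without any 1 whole embryo library or yolk replicate 2 or 4. Its call at 26 hpf (lower in yolk, log2 -2.52) ended with the block and the libraries of that age alone, and its value was -3.55 without yolk 26 hpf replicate 1. The level of slc30a10 was 0.62 ± 0.165 CPM in yolk and 2.46 ± 0.461 CPM in whole embryo at 48 hpf (3.95-fold lower, adjusted p = 0.023), a call that ended without whole embryo replicate 1 or yolk replicate 2 or 4.

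Both copper carriers were higher in yolk at every age. At 6 hpf the importer slc31a1 (CTR1) was at 2810.02, 3011, 2296 and 2291 CPM in the yolk libraries and 267, 196, 204 and 211 CPM in the whole embryo libraries, without overlap (11.8-fold, log2 3.57 ± 0.23 SE, adjusted p = 1.4e-13). It kept a yolk level of 2337 ± 191 CPM at 10 hpf, 12.5-fold above whole embryo. By 26 hpf slc31a1 had fallen 8.61-fold in yolk, to 126, 232, 273 and 454 CPM, and 5.54-fold in whole embryo, to 34.7, 31.1, 32.5 and 36.8 CPM. The difference between the tissues was 8.04-fold at 26 hpf and 3.98-fold at 48 hpf. The related slc31a2 (CTR2), a protein of endosomes and lysosomes, was 7.92-fold, 5.37-fold, 3.36-fold and 4.08-fold higher in yolk at the 4 ages, at yolk levels of 24.2 ± 4.21, 18.9 ± 4.81, 11.4 ± 5.17 and 10.8 ± 0.62 CPM.

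The iron importer slc11a2 (DMT1), whose loss in zebrafish causes anaemia, rose in yolk at both steps up to 26 hpf. Yolk libraries held 50.3, 52.2, 42.7 and 38.99 CPM at 6 hpf, 173, 161, 119 and 96.6 CPM at 10 hpf, 149, 319.9, 294 and 518 CPM at 26 hpf and 139.8, 115, 125 and 110.4 CPM at 48 hpf. In whole embryo the range over all ages was narrower, from 21.98 ± 3.58 CPM at 6 hpf to 45.9 ± 4.24 CPM at 26 hpf. At no age did the tissues overlap, and the difference was 2.1-fold, 3.89-fold, 6.98-fold and 3.65-fold (log2 2.8 ± 0.23 SE at 26 hpf, adjusted p = 4e-11). Blood markers moved with it at 26 hpf. The summed level of 9 erythroid markers was 979, 3314, 3896 and 5232 CPM in yolk replicates 1 to 4, against 1018 to 1257 CPM in whole embryo, and that of 9 macrophage and neutrophil markers 121 to 231 against 43.1 to 55.6 CPM. At 10 hpf the erythroid sum was 8.46 to 11.6 CPM in yolk and 4.16 to 8.89 CPM in whole embryo, and the macrophage and neutrophil sum 2.37 to 5.27 against 82.3 to 126 CPM. At 48 hpf the erythroid sum was 425 to 1315 CPM in yolk and 1028 to 2990 CPM in whole embryo. The macrophage and neutrophil sum was then 34.7 to 46.1 against 44.9 to 64.7 CPM. Of the 9 erythroid markers 5 were higher in yolk at 26 hpf, and 0 were higher and 5 lower at 48 hpf. Of the 9 macrophage and neutrophil markers 7 were higher at 26 hpf, and 1 was higher and 2 lower at 48 hpf. Over all tested genes 20.6% were higher in yolk at 26 hpf, and 22.8% were higher and 27.5% lower at 48 hpf. The macrophage and neutrophil counts at 48 hpf were not above those shares. The part of these cells in the level of slc11a2 was not tested.

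Of the magnesium carriers, slc41a1, a sodium-coupled magnesium exporter in mammals, was 10.1-fold, 13.7-fold, 7.52-fold and 3.76-fold higher in yolk at the 4 ages. At 10 hpf its libraries held 46.6, 61.01, 45.1 and 48.97 CPM in yolk and 4.67, 3.41, 3.88 and 2.78 CPM in whole embryo, with no overlap (log2 3.77 ± 0.24 SE, adjusted p = 1.3e-13). In whole embryo slc41a1 rose over the steps from 10 to 26 and from 26 to 48 hpf, and went from 2.85 ± 0.809 to 15.99 ± 2.4 CPM between 6 and 48 hpf, while yolk had 65.9 ± 26.1 CPM at 26 hpf and 60.2 ± 4.24 CPM at 48 hpf.

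The magnesium carrier slc41a2a came up from almost no counts. At 6 hpf it had 0 counts in whole embryo and 12 in yolk, all of them in yolk replicate 2. That library had 1883 CPM of epidermis markers, against 7494 to 10278 CPM in the whole embryo libraries of 6 hpf. The part of epidermis in these counts was not tested. The call of slc41a2a at 6 hpf ended without yolk replicate 2 or any 1 whole embryo library. At 10 hpf the yolk libraries held 1.85, 6.5, 2.12 and 4.44 CPM and the whole embryo libraries 0.284, 0.772, 0.131 and 0.755 CPM, which did not overlap (7.61-fold, log2 2.93 ± 0.53 SE, adjusted p = 4.6e-05). At 26 hpf slc41a2a had reached 121, 230.1, 233 and 339 CPM in yolk, a 61.8-fold rise since 10 hpf (log2 5.95 ± 0.55 SE, adjusted p = 1.5e-09), and 8.54, 9.69, 11.8 and 10.8 CPM in whole embryo. The difference was then 22.6-fold and at 48 hpf 21.6-fold, at 251 ± 38.6 CPM in yolk and 11.6 ± 3.74 CPM in whole embryo. Its paralog slc41a2b went the other way, and was 2.12-fold, 2.65-fold, 1.62-fold and 1.68-fold lower in yolk. At 10 hpf slc41a2b was at 2.85, 2.95, 4.67 and 2.91 CPM in yolk and 8.24, 7.59, 10.02 and 9.66 CPM in whole embryo (log2 -1.41 ± 0.2 SE, adjusted p = 6.9e-07). The 26 hpf call of slc41a2b ended with the block and the libraries of that age alone.

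The balance within the duplicated genes was compared between tissues as the log2 ratio of the 2 paralogs' counts in each library, in which depth and scaling cancel. There were 8 such comparisons, of 4 against 4 libraries each, and the exact permutation test (two-sided) cannot give a p below 0.0286. The ratio of slc30a1a to slc30a1b was lower in yolk than in whole embryo by 1.43 at 10 hpf, 2.56 at 26 hpf and 0.85 at 48 hpf, with no overlap (exact permutation p = 0.0286 and adjusted p = 0.0327 at each of these ages). At 6 hpf the means were -0.24 ± 0.40 in yolk and 0.64 ± 0.43 in whole embryo, and the libraries overlapped (exact permutation p = 0.0571). Taken between same-numbered libraries, which the replicate number pairs, the 6 hpf differences were -0.68, -1.09, -0.95 and -0.79, lower in yolk in 4 of 4 pairs. An exact test of 4 pairs cannot give a p below 0.125, which is what it gave (exact paired test, two-sided). At 26 hpf slc30a1b had more counts than slc30a1a in all 4 yolk libraries (-1.09 ± 0.34) and fewer in all 4 whole embryo libraries (1.47 ± 0.47). The ratio of slc41a2a to slc41a2b was higher in yolk by 4.47, 5.12 and 5.22 at 10, 26 and 48 hpf, again without overlap (exact permutation p = 0.0286, adjusted p = 0.0327 each). The permutation test does not use the pairing by replicate number. Taken as pairs, each ratio kept its direction in 4 of 4 pairs at 10, 26 and 48 hpf. The p was 0.125 in each case, the smallest that 4 pairs can give (exact paired test, two-sided). No comparison of that ratio is drawn at 6 hpf, where 7 of 8 libraries had 0 counts of slc41a2a. It nevertheless stayed among the 8 comparisons over which the p-values were adjusted. How reads shared between copies were counted is not given in the sources used here.

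**Figure D3:**
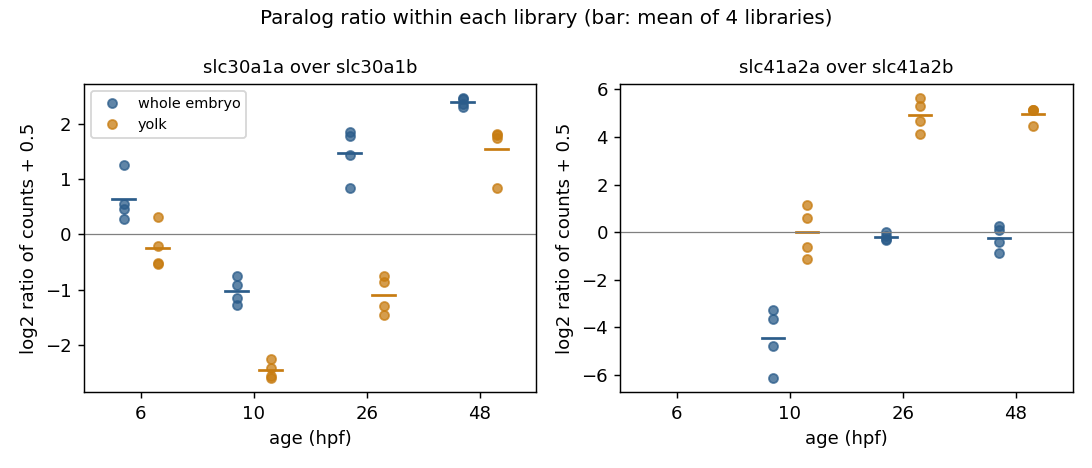
Log2 ratio of the counts of 2 paralogs within each library (offset 0.5) by age in hpf, for slc30a1a over slc30a1b (left) and slc41a2a over slc41a2b (right), with whole embryo in blue, yolk in orange and bars at the mean of 4 libraries. The tissues are separate at every age drawn except 6 hpf for slc30a1, and slc41a2 is not drawn at 6 hpf.

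Between ages, more carriers rose than fell in yolk at the earliest step, and more fell than rose at the latest. From 6 to 10 hpf 13 of the 28 genes rose in yolk and 6 fell, while 25.8% of all tested genes rose and 23.4% fell. Besides slc41a2a, the largest rises in yolk over this step were those of slc39a11 (9.97-fold), slc39a4 (8.83-fold), slc39a13 (6.29-fold) and slc39a6 (3.8-fold). Those of slc39a11 and slc39a4 started from 28 and 11 counts over the yolk 6 hpf group, at 0.255 ± 0.21 and 0.108 ± 0.128 CPM. The rise of slc39a4 was log2 3.14, and 3.93 without yolk 6 hpf replicate 1. From 10 to 26 hpf 8 rose and 7 fell in yolk, against 33.3% and 23.1% of all tested genes, and slc31a1, slc30a1b and slc39a1 fell 8.61-fold, 6.94-fold and 5.97-fold. The fall of slc39a5 over this step (1.48-fold, adjusted p = 0.014), that of slc31a2 and the rise of slc30a2 did not pass without yolk 26 hpf replicate 1 (adjusted p = 0.072 for slc39a5 and 0.053 for slc30a2). The fall of slc39a1 was log2 -2.58, and -3.24 without yolk 26 hpf replicate 4, and the rise of slc30a2 was 3.32, and 4.99 without yolk 10 hpf replicate 2. By group median, the epidermis and hatching gland sums given above moved with this step and the next. The fall of slc31a2 also ended without yolk 26 hpf replicate 2 or 10 hpf replicate 3 or 4.

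From 26 to 48 hpf 4 genes rose in yolk and 12 fell, against 12% and 16.1% of all tested genes, and under library totals 5 rose and 6 fell. With the block and the libraries of that step alone, 2 rose and 6 fell. Same-numbered libraries did not deviate together over this step (correlation -0.233 to 0.0878), so the block had no pairing to use there. The rise of slc39a4 did not pass without yolk 26 hpf replicate 2 or 4 or 48 hpf replicate 1, nor that of slc30a2 without replicate 4 of either age. The genes that rose were slc39a8 (11.1-fold), slc39a4 (6.25-fold), slc30a2 (4.75-fold) and slc30a9 (1.69-fold). Of these, slc39a8, slc39a4 and slc30a2 started from low yolk means at 26 hpf, of 0.909 ± 0.873, 0.259 ± 0.278 and 0.481 ± 0.556 CPM. The largest falls were those of slc39a1 (6.77-fold) and slc30a1b (6.55-fold). Single libraries of 26 hpf moved some of these values. Without yolk 26 hpf replicate 1 the rise of slc39a4 was log2 3.27 in place of 2.64 and that of slc30a2 was 3.27 in place of 2.25. The rise of slc39a8 was 4.32 in place of 3.48 without replicate 2, and the fall of slc39a1 was -2.1 in place of -2.76 without replicate 4. In yolk the highest group mean was at 6 hpf for 7 genes, at 10 hpf for 4, at 26 hpf for 10 and at 48 hpf for 7.

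In whole embryo, 10 genes rose and 6 fell from 6 to 10 hpf, against 21.2% and 20.0% of all tested genes (16 and 5 under library totals). The importer slc39a3 rose 11.1-fold, from 0.50 ± 0.256 to 5.59 ± 0.924 CPM, and slc41a2a rose from 0 to 94 counts over 4 libraries, at least 24.5-fold above a floor of 3 counts over the group. Smaller rises past the test were those of slc39a4 (6.06-fold), slc39a8 (5.17-fold) and slc39a11 (4.03-fold), from means of 0.203 ± 0.245, 0.0742 ± 0.102 and 0.298 ± 0.194 CPM. The rise of slc39a4 did not pass without whole embryo 6 hpf replicate 1, 3 or 4 or 10 hpf replicate 2, nor that of slc39a8 without 10 hpf replicate 4. The log2 rise of slc39a4 was 2.6, and 3.9 without whole embryo 6 hpf replicate 2, and that of slc39a8 was 2.37, and 3.73 without whole embryo 6 hpf replicate 4. From 10 to 26 hpf 6 rose and 12 fell, against 30% and 26.0%. Of the 12 slc39 genes 7 fell in whole embryo over this step, among them slc39a1 (6.68-fold). The exporter slc30a1b fell 12.97-fold and slc30a10 rose 10.1-fold from 0.161 ± 0.0977 CPM, while slc30a2 went from 0 to 609 counts (at least 189-fold above the floor).

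From 26 to 48 hpf 3 rose and 3 fell in whole embryo, against 12.5% and 9.83% of all tested genes. These were slc30a2 (4.29-fold), slc41a1 (1.83-fold) and slc30a9 (1.46-fold), which rose, and slc30a8 (1.92-fold), slc30a1b (1.66-fold) and slc39a10 (1.37-fold), which fell. A fit of those 8 libraries alone gave 4 and 13, library totals gave 1 and 7, and leaving out whole embryo 26 hpf replicate 2 left 2 calls and 48 hpf replicate 3 or 4 left 3. The call of slc39a10 over this step ended without any 1 of those 8 libraries, under the DESeq2 alternatives and without the low-count filter. That of slc30a2 ended under library totals and without any 1 library except whole embryo 48 hpf replicate 1. The calls of slc30a1b and slc30a9 each ended without at least 1 single library, and that of slc30a9 also under library totals.

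The change from 6 to 48 hpf differed between yolk and whole embryo for 12 of the 28 genes, 7 with a more positive change in yolk and 5 with a more negative one, against 25.8% and 25.0% of all tested genes. Under library totals the counts were 6 and 8, and under DESeq2 size factors 6 and 7. Neither 7 nor 5 of 28 was above the share of all tested genes. The 7 were slc39a4, slc39a10, slc39a6, slc39a13, slc30a6, slc39a5 and slc11a2, 5 of them from the slc39 family, which holds 12 of the 28 genes. The 5 were slc31a1, slc39a1, slc41a1, slc31a2 and slc39a9, of which slc39a1 and slc39a9 are of that family too. For slc39a13 the difference was log2 2.46 ± 0.33 SE (adjusted p = 3.7e-07) and for slc30a6 1.93 ± 0.28 SE (adjusted p = 1.3e-06). Both copper carriers lost more of their level in yolk than in whole embryo, by -1.57 ± 0.3 SE for slc31a1 (adjusted p = 6.8e-05) and -0.96 ± 0.38 SE for slc31a2 (adjusted p = 0.038). The call of slc11a2 ended under DESeq2 size factors, by the DESeq2 Wald test, under library totals and without any 1 of 5 libraries. That of slc31a2 ended without the low-count filter and without any 1 of 8 libraries. The call of slc39a4 ended without whole embryo 6 hpf replicate 2 (log2 2.38) and that of slc39a9 without yolk 6 hpf replicate 2. The value of slc39a4 was 4.47 without yolk 6 hpf replicate 1. With the block and the libraries of 6 and 48 hpf alone, slc39a4 did not pass (log2 3.66, adjusted p = 0.058), while slc30a1a (log2 -0.551, adjusted p = 0.025), slc30a7 (log2 0.506, adjusted p = 0.032) and slc30a8 (log2 0.705, adjusted p = 0.045) did, which gave 8 and 6. Whether same-numbered libraries of 6 and 48 hpf deviated together was not checked.

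**Figure D4:**
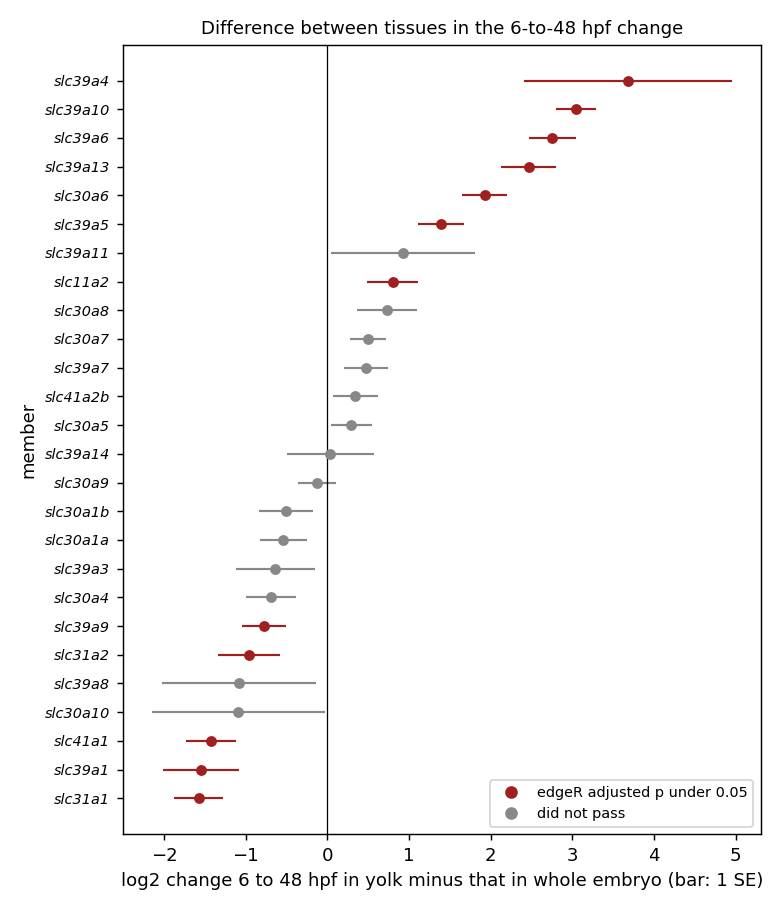
Difference between tissues in the log2 change from 6 to 48 hpf (yolk minus whole embryo) for 26 genes, with bars of 1 SE and red for an edgeR adjusted p under 0.05; slc30a2 and slc41a2a are not drawn because a 6 hpf group had 0 counts. The importers slc39a4, slc39a10, slc39a6 and slc39a13 lie above 2 and slc31a1, slc39a1 and slc41a1 below -1.

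Other genes of metal handling were taken from 6 lists. Their values are those of all libraries under TMM, and the alternatives were read for the carrier genes only. Library totals moved the median of all tested genes by -0.37, -0.87, -1.06 and -0.61 at the 4 ages. Whether list genes higher in yolk by about that much or less would stay so under library totals was not tested. Among these are atp2c1 and ca2 at 26 hpf, commd1 at 26 and 48 hpf and alpl at 48 hpf. Over all tested genes the shares higher in yolk were 24.8%, 24.5%, 20.6% and 22.8% at 6, 10, 26 and 48 hpf and the shares lower 27.4%, 29.9%, 25.3% and 27.5%, against which the counts of each list stand. Of 3 genes of metal buffering and zinc sensing, 2, 1, 1 and 1 were higher in yolk at 6, 10, 26 and 48 hpf and the rest did not pass. The metallothionein mt2, which binds zinc and copper in the cytosol, was higher at every age, at 42.3 ± 6.72, 69.5 ± 17.1, 322 ± 199 and 130.3 ± 86.2 CPM in yolk against 5.91 ± 1.63, 3.87 ± 2.06, 28.5 ± 8.26 and 5.2 ± 2.93 CPM in whole embryo. Its log2 difference was 2.84, 4.17, 3.49 and 4.64. The zinc sensor mtf1, the transcription factor that turns on metallothionein genes, passed as higher in yolk at 6 hpf (log2 0.95 ± 0.4 SE, adjusted p = 0.046).

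Of 12 copper handling genes, 11 were tested, and 5, 4, 5 and 7 were higher in yolk at the 4 ages while 1, 1 and 1 were lower at 6, 10 and 26 hpf. The copper chaperone atox1 was higher at all ages (log2 2.41 to 2.85), and so was the copper pump atp7a (log2 0.59, 2.22, 2.7 and 1.52). Higher yolk levels of commd1, which takes part in copper export, had log2 differences of 2.58, 2.92, 0.96 and 0.63. The ferroxidase cp passed at 26 and 48 hpf (log2 3.87 ± 0.65 and 4.38 ± 0.67 SE). Of 21 iron handling genes, 8, 11, 15 and 12 were higher and 3 were lower at 6 hpf and 3 at 48 hpf. The iron carrier protein of plasma, tfa, was at 24414 ± 9232 CPM in yolk and 749 ± 148 CPM in whole embryo at 26 hpf (log2 5.03 ± 0.31 SE), and the iron exporter slc40a1 passed as higher from 10 hpf (log2 2.77, 3.81 and 2.88). The haem-degrading enzyme hmox1a was lower in yolk at 6 hpf (log2 -1.59 ± 0.36 SE) and higher at 26 hpf (log2 4.9 ± 0.38 SE). The iron hormone hamp passed as higher at 10, 26 and 48 hpf (log2 4.18 ± 0.97 SE at 48 hpf).

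Of 13 magnesium handling genes, 11 were tested, and 6, 7, 5 and 5 were higher and 1, 3, 1 and 1 lower in yolk. Among them cnnm2b, a magnesium transport mediator, was higher at all ages (log2 3.27, 3.94, 4.99 and 4.17), as were nipa1 (log2 1.42 to 3.21) and mmgt1 (log2 1.19 to 2.01). The channel trpm6 was higher at 6 and 10 hpf (log2 1.74 and 2.2). Of 3 manganese and Golgi ion pump genes, the Golgi calcium and manganese pump atp2c1 was higher at 6, 10 and 26 hpf (log2 1.75, 1.75 and 0.57). In that list tmem165 was higher at 6 hpf (log2 0.57), and atp13a1, a pump of the endoplasmic reticulum, was lower at 6 and 10 hpf (log2 -1.08 and -0.64).

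Of 11 zinc-dependent secreted or lysosomal enzymes, 4, 6, 6 and 5 were higher in yolk and 4, 4, 1 and 3 lower. The lysosomal sphingomyelinase smpd1 was higher at all ages (log2 2.66, 3.1, 3.81 and 3.42). The carbonic anhydrase ca2 was higher at 6, 10 and 26 hpf (log2 3.29, 2.98 and 1.03). The alkaline phosphatase alpl was lower in yolk at 6, 10 and 26 hpf and higher at 48 hpf (log2 -3.6, -2.21, -0.88 and 0.71). The median log2 difference of these 11 genes was 0.45, 0.50, 1.03 and 0.68 at the 4 ages, and that of the 21 iron genes 0.61, 0.46, 1.18 and 1.01, beside the medians of all tested genes given above. It was 0.59, 0.55, 0.90 and 0.79 for the 11 copper genes and 0.51, 0.84, 0.25 and 0.38 for the 11 magnesium genes.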

How the data were processed

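RNA libraries of whole embryos and yolk tissue were analysed from the deposited table, which holds raw counts per gene symbol and library as made by the authors. TRIzol extraction and a NEBNext Ultra II RNA kit are named per the labels' protocols. Per the submitters' processing notes, the tools were STAR 2.7.10b, featureCounts 2.0.6, FastQC 0.12.1 and Trim Galore 0.6.10, and the build GRCz11. Whether strand was used in counting is not given in the sources, so reads of antisense or overlapping genes could not be told apart.

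Samples were grouped by the tissue, age and repeat number in their titles. The counts were fitted in edgeR 4.0.16 (R 4.3.3) with TMM scaling, filterByExpr (minimum count 10, minimum total 15) and a robust quasi-likelihood model of 8 group means with 24 residual degrees of freedom. Of 36109 genes, 26268 were tested in 11 comparisons, with Benjamini-Hochberg adjustment over all of them at a threshold of 0.05. The fit was tested on simulated data. The SE is the log2 difference divided by the square root of F. Paralog ratios used counts plus 0.5 and an exact permutation test.

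Same-numbered libraries deviated together between yolk and whole embryo at each age (lowest correlation 0.19 over 9034 genes) and between 6 and 10 hpf in yolk, so the replicate number pairs them there. Alternatives were DESeq2 1.42.0 size factors and its Wald test, library totals, no filter, the replicate block, the libraries of a comparison alone, and each library left out. They were read for the carrier genes and not for the genes of the other lists. Differences of the paralog ratios between same-numbered libraries were added after seeing the data. Every carrier gene was named. The plan gave library values to the genes with the 8 largest differences, the leading gene of each family and paralogs. Library values of slc30a2, slc39a4, slc39a6, slc39a10 and slc39a13 were printed in addition to that plan. Changes between ages were named for the 5 largest per step and for some others. In each other list, the genes with the largest differences or the highest levels were named. For 1 listed gene the result is not reported here. The genes and lists were chosen with earlier results of these data known. Counting error is small at these totals for genes with many counts. It is not small for calls that rested on few, such as 5 counts of slc30a2 in yolk at 10 hpf and 12 of slc41a2a in yolk at 6 hpf. No replicates agreed within sampling noise.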

Additional observations from a re-analysis of the deposited data

Results flagged for a closer look

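In groups of 4 libraries, 1 library stood far from the other 3 (Dixon's criterion, which chance meets in about 1 of 20 groups) in 8 of 87 groups examined. Yolk 6 hpf replicate 2 had 0.415 CPM of slc41a2a while the others had 0. At the same age slc39a1 was 1601 CPM in yolk replicate 1, against 1731 to 1754 CPM. In yolk 10 hpf replicate 3, slc30a8 was 509 CPM, against 359 to 380.5 CPM, and slc41a2b was 4.67 CPM, against 2.85 to 2.95 CPM. Whole embryo 48 hpf replicate 4 had 34.4 CPM of slc31a1, against 26.7 to 27.9 CPM. For slc39a8, whole embryo 26 hpf replicate 4 had 0.734 CPM, against 0.296 to 0.354 CPM, and yolk 48 hpf replicate 1 had 8.21 CPM, against 10.5 to 10.9 CPM. Whole embryo 6 hpf replicate 1 had 9.73 CPM of slc41a2b, against 10.1 CPM in the other 3.

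The change from 6 to 48 hpf differed between tissues by the interaction test for 12 genes. As yolk minus whole embryo on the log2 scale, it was 3.68 for slc39a4, 3.04 for slc39a10, 2.76 for slc39a6, 2.46 for slc39a13, 1.93 for slc30a6, 1.39 for slc39a5 and 0.80 for slc11a2. It was -1.57 for slc31a1, -1.55 for slc39a1, -1.42 for slc41a1, -0.96 for slc31a2 and -0.77 for slc39a9.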

How the results depend on the processing

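Of 2134 results for single genes under settings that kept all libraries, 1963 stayed on the same side of the threshold with the same direction, as did 2550 of 2688 with 1 library left out. All 13 reversals came under library totals, and their log2 values were -0.356 (slc30a5), -0.341 (slc30a6) and -0.832 (slc30a9) at 10 hpf. At 26 hpf they were -0.294 (slc30a5), -0.0156 (slc30a6), -0.827 (slc30a7), -0.825 (slc39a3), -0.0334 (slc39a6) and -0.851 (slc39a7). At 48 hpf they were -0.126 (slc30a6), -0.112 (slc30a7) and -0.576 (slc30a9), and the yolk step from 26 to 48 hpf gave 0.436 (slc30a7). Library totals also gave 8, 8 and 6 genes lower in yolk at 6, 26 and 48 hpf, against 5, 2 and 3 under TMM. The cause was not tested.

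Fitting the libraries of a comparison alone gave 1 gene lower in yolk at 26 hpf, and 17 changed from 26 to 48 hpf in whole embryo, against 6. With the replicate block as well these counts were 0 and 18, and 8 genes changed from 26 to 48 hpf in yolk, against 16. The 0 is by edgeR with 3 residual degrees of freedom, where 2 had an unadjusted p under 0.05, and DESeq2 over all libraries called 2. The block over all libraries gave 14 and 6 higher and lower at 6 hpf, 16 and 7 at 10 hpf, 17 and 2 at 26 hpf and 19 and 3 at 48 hpf. Same-numbered libraries of the other steps between ages did not all deviate together.

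With 1 library left out, the count of genes higher in yolk ranged over 12 to 14, 14 to 17, 17 to 18 and 18 to 19 at the 4 ages, and the count for 26 to 48 hpf in whole embryo over 2 to 5. The paralog ratio difference of slc30a1 at 6 hpf ranged from -0.67 to -1.06 with 1 library left out (-1.06 without yolk replicate 3, where the libraries no longer overlapped). The value for slc41a2 at 6 hpf is set by the offset of 0.5, since 7 of 8 libraries had 0 counts of slc41a2a, and is no comparison; it ranged from 1.81 to 3.17, with 2.73 to 2.77 without a whole embryo library. Genes below about 1 CPM are limited by depth.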
